A study of Mus musculus with 6 samples.

Results

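The extracellular proteases of the MMP, ADAM and ADAMTS families and their inhibitors, the TIMPs, were examined in mouse ear skin bitten by ticks, in the presence and absence of adiponectin, the adipocyte hormone. Every gene whose symbol was Mmp, Timp, Adamts or Adam followed directly by a number was taken, which gave 54 of the 15667 genes in the table: 19 MMPs, 4 TIMPs, 17 ADAMTSs and 14 ADAMs. RNA was sequenced from bitten ears of 3 wild-type mice (WT, Adipo+/+) and 3 littermates homozygous for a null allele of adiponectin (KO, Adipo-/-, the B6;129-Adipoq tm1Chan/J line). All 6 mice were females of 7 to 8 weeks on a mixed B6;129 background, each had been exposed to 10 Ixodes scapularis nymphs for 48 h, and a punch of 3.5 mm was taken where the ticks fed. The allele is null in all tissues, and unbitten skin was not analysed here, so the values describe bitten skin only. A punch holds many cell types, and in such bulk libraries fewer cells of a type and less RNA per cell cannot be told apart.

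MMPs are zinc-dependent proteases, secreted or anchored in the cell membrane as inactive proenzymes, that cleave collagens and other components of the extracellular matrix. TIMPs bind their active site and block it. ADAMs sit in the membrane and release the outer part of other surface proteins, while ADAMTSs are secreted and cut proteoglycans and procollagens. In skin, several MMPs are low at rest and are induced at wound edges and in inflamed tissue.

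Values are CPM, the reads of a gene per 1000000 reads of its library. A fold change is KO minus WT on the log2(CPM + 0.5) scale, with its standard error (SE), and p-values are from limma on the whole table. Implied depth was 3403711 to 6591523 reads, so 3 reads corresponded to 0.455 to 0.881 CPM. Adipoq was at 30.5, 63.7 and 49.6 CPM in WT replicates 1, 2 and 3, and at 0, 0.560 and 0 CPM in the 3 KO libraries (log2 fold change -6.17, SE 0.41, limma adjusted p = 0.00322), so the labels matched the targeted gene. The skin markers were present in every library, with 21440 to 40001 CPM summed over 7 epidermal genes and 4629 to 7130 CPM over 8 fibroblast genes. Markers of the growing hair follicle differed widely between libraries, being far lower in WT replicates 1 and 2 than in the others and highest in WT replicate 3. Their sum over 15 of 15 listed genes was 14.0, 20.5 and 22809 CPM in WT replicates 1, 2 and 3, and 1817, 9063 and 949 CPM in the KO replicates. Krt25, Krt28, Krt31, Krt33a, Krt33b, Krt34, Krt35, Krt71, Krt73 and Shh had 0 reads in at least 1 library.

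A group of 7 MMP genes lay within 309.372 kb on chromosome 9 (7272514 to 7581885, GRCm38), and the table held no other gene there. In order from the start these were Mmp13, Mmp12, Mmp1b, Mmp3, Mmp10, Mmp8 and Mmp27. The sequence upstream of the start site is shown for 4 of them. Among the 36 genes of the families with a listed promoter, these 4 were the ones whose upstream 250 bases held a site of the form TGANTCA. This site, which reads alike on both strands, is bound by AP-1, the dimers of Fos and Jun proteins known to act on several MMP promoters. Promoters came from RefSeq (GRCm38.p6), where 36 of the 54 genes had an entry. Genes without an entry, among them Mmp2, Mmp9 and Mmp19, were not searched for the site. The windows are chr9:7272264-7272513 (plus strand) for Mmp13, chr9:7388027-7388276 (minus strand) for Mmp1b, chr9:7445572-7445821 (plus strand) for Mmp3 and chr9:7502092-7502341 (plus strand) for Mmp10. Each is written 5′ to 3′ and ends at the last base before the start site, with the AP-1 match in capitals.
Mmp13: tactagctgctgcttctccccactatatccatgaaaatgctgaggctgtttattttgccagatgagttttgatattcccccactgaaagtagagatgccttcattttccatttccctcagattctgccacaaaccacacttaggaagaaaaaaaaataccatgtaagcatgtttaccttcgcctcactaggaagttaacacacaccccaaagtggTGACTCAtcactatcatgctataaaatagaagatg
Mmp1b: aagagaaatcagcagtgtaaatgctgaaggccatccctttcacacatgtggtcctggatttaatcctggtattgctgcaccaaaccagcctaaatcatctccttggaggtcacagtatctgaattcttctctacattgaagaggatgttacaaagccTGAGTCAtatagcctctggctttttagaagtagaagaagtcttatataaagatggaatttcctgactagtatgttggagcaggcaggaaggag
Mmp3: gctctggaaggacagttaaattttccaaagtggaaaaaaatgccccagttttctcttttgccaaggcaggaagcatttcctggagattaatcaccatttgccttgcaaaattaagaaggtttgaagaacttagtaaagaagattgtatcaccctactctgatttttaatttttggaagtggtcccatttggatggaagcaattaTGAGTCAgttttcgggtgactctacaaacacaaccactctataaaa
Mmp10: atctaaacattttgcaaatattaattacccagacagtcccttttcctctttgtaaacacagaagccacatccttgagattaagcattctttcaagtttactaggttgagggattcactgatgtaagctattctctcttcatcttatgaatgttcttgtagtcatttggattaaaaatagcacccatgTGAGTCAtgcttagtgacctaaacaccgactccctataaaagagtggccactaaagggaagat
The match began 35, 93, 46 and 63 bases before the start site of Mmp13, Mmp1b, Mmp3 and Mmp10. The letters TATAAA (either strand), as in a TATA box, followed it in each of them, beginning 16, 49, 7 and 29 bases before the start site. All distances are counted from the listed start site, and whether transcription begins there was not tested. TGANTCA was present in 6.75% of the 32851 promoters listed for the genome and in 0 of the 22 promoters found for TIMPs, ADAMTSs and ADAMs. TATAAA was present in 12.4% of all promoters. The 3 remaining genes of the chromosome 9 group held neither in this window. A match describes the letters only.

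These 4 genes were among the most variable of the families. The spread of a gene was measured as its highest minus its lowest library on the log2(CPM + 0.5) scale. It was above 2 in 4 of 4 tested genes with the AP-1 match (2.51 to 4.04), in 4 of 29 tested genes with a listed promoter and no match, and in 2 of 16 without a listed promoter. The 4 genes with the match lie in 1 group on chromosome 9 and also held TATAAA, so these traits cannot be told apart. In WT replicate 3, Mmp10 held 1 read and Mmp1b 0, so their spread rests on few reads. The match and the spread were set side by side after the values had been seen, and no test was made.

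Mmp13, a collagenase that cleaves fibrillar collagen, was at 18.4, 31.1 and 4.78 CPM in WT replicates 1, 2 and 3, and at 7.89, 4.76 and 3.23 CPM in KO replicates 1, 2 and 3. WT replicates 1 and 2 lay above all KO libraries, whereas WT replicate 3 lay within the KO range. The WT mean was 18.1 ± 13.2 CPM and the KO mean 5.29 ± 2.37 CPM (SD, n = 3), and the log2 fold change was -1.42 (SE 0.63, 95% interval -2.87 to 0.03, limma unadjusted p = 0.0543). Mmp13 is among the genes the study listed from these same libraries, so its direction is not independent evidence.

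Mmp10, stromelysin-2, is made by keratinocytes at wound edges and cleaves matrix proteins and other proMMPs. It was at 7.75, 3.87 and 0.165 CPM in the WT replicates and at 1.67, 0.280 and 0.881 CPM in the KO libraries (log2 fold change -1.12, SE 0.90). WT replicate 3 and KO replicate 2 each held 1 read, and their CPM differ by depth alone. Mmp1b, a rodent relative of interstitial collagenase, was at 7.75, 2.44 and 0 CPM in WT and at 1.06, 1.40 and 0.881 CPM in KO (log2 fold change -0.52, SE 0.92). Its 0 reads in WT replicate 3 allow up to 0.495 CPM. Both genes were thus highest in WT replicates 1 and 2, while the third WT library lay at or below the low KO libraries, a difference of few reads.

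Mmp3, stromelysin-1, which degrades proteoglycans and activates proMMPs, is named here after its values were seen. It was at 60.8, 51.1 and 10.2 CPM in WT and at 57.0, 34.2 and 26.4 CPM in KO, with a log2 fold change of 0.22 (SE 0.63). WT replicate 3 was again the lowest library, but KO replicate 1 reached the WT values. Mmp12, the macrophage metalloelastase, was low, at 0.968, 1.42 and 0.659 CPM in WT and at 1.67, 2.24 and 1.18 CPM in KO (log2 fold change 0.53, SE 0.41). Mmp8, the neutrophil collagenase, was below the filter of a mean of 1 CPM and reached at most 1.94 CPM. The CPM summed over the 7 genes was 99.2, 91.7 and 17.0 in WT and 70.5, 46.2 and 34.1 in KO. The median log2 fold change of the 6 tested genes was -0.28, against -0.03 over all genes.

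The 2 gelatinases, which cleave denatured collagen and basement membrane collagen, differed in spread, at 0.41 for Mmp2 and 1.74 for Mmp9 on the log2 scale. Mmp2, made mainly by fibroblasts, was at 234, 215 and 254 CPM in WT and at 206, 243 and 274 CPM in KO. The groups overlapped fully, and the log2 fold change of 0.03 had a 95% interval of -0.26 to 0.33. Mmp9, which neutrophils, macrophages and keratinocytes make, was at 55.7, 48.8 and 16.3 CPM in WT and at 25.2, 24.4 and 22.6 CPM in KO (log2 fold change -0.55, SE 0.41). The 3 KO values were close together and lay between the low WT replicate 3 and the other WT libraries.

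**Figure D1:**
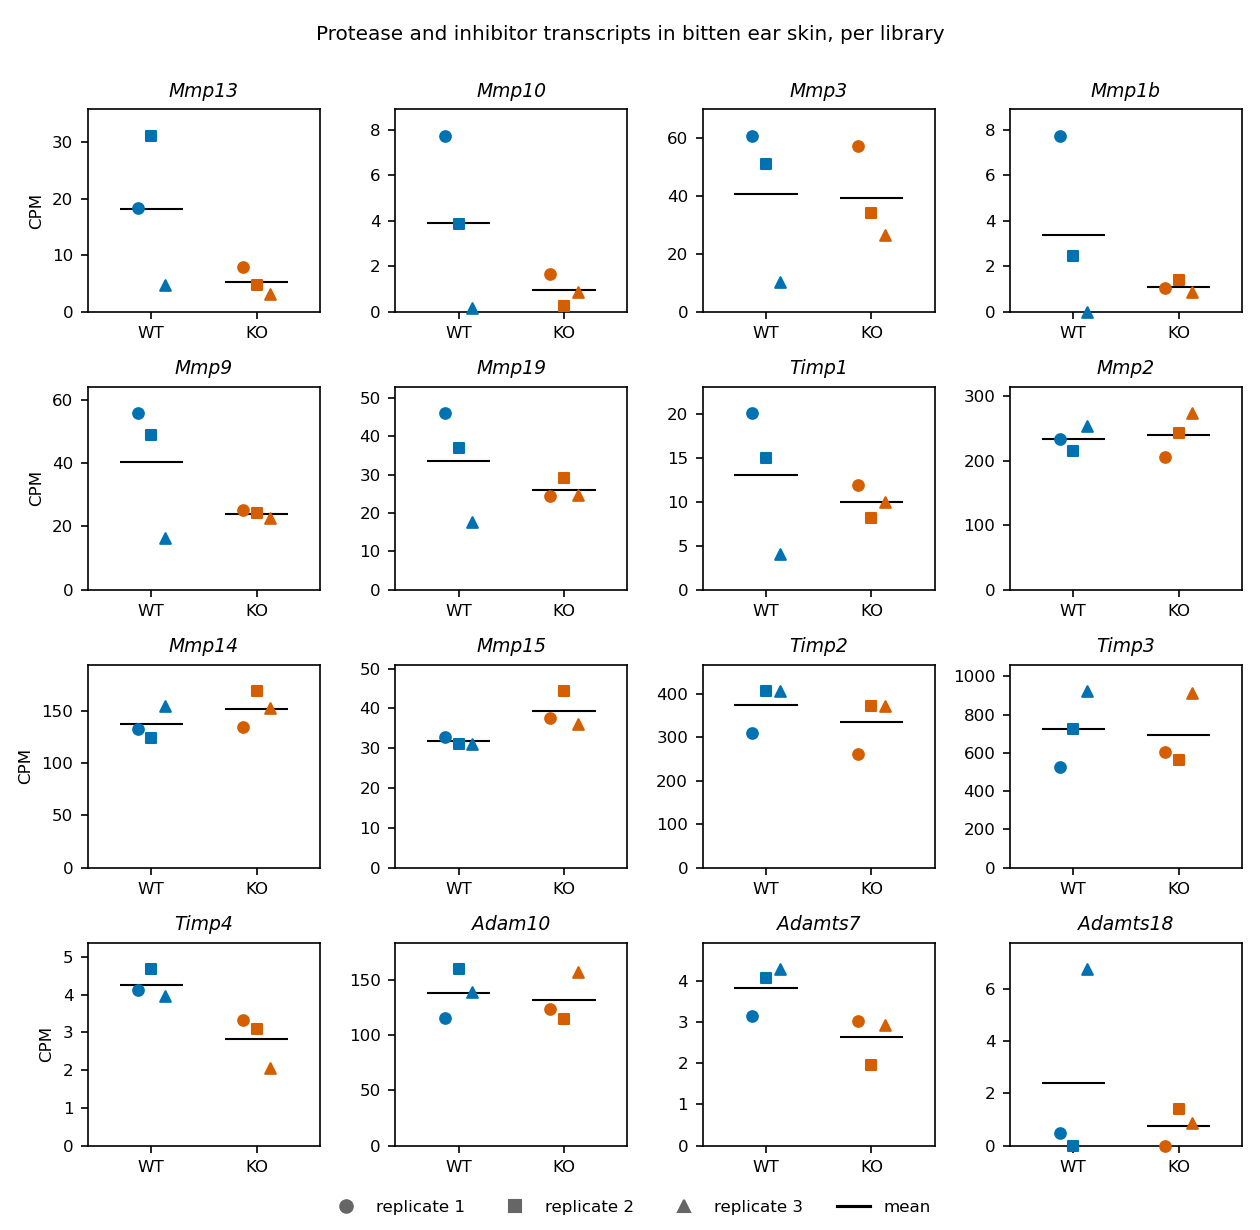
Level of 16 genes in each library, in CPM (vertical axis, starting at 0), for WT and KO bitten skin. Each point is a library, its shape gives the replicate number and the line is the group mean. WT replicate 3 (triangle) is the lowest of the 6 libraries for Mmp10, Mmp3, Mmp1b, Mmp9, Mmp19 and Timp1, while the KO and WT groups do not overlap for Mmp15, Timp4 and Adamts7.

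The membrane-type MMPs act at the cell surface. Mmp14, the main membrane-type MMP and an activator of proMMP2, was at 132, 124 and 155 CPM in WT and at 134, 169 and 153 CPM in KO (log2 fold change 0.15, SE 0.13). Mmp15, also of this class, was the MMP whose groups did not overlap. It was at 32.9, 31.1 and 31.2 CPM in WT and at 37.5, 44.3 and 36.1 CPM in KO, with means of 31.7 ± 1.03 and 39.3 ± 4.37 CPM (SD, n = 3). The log2 fold change was 0.30 (SE 0.13, 95% interval -0.01 to 0.60, limma unadjusted p = 0.0532). Its p-value was below 0.05 with a filter at a mean of 5 CPM (0.0470), after median-of-ratios rescaling (0.0332) and after quantile normalization (0.0245), which were 3 of 17 alternatives. It reached 0.179 without KO replicate 2, 0.118 without WT replicate 2, 0.114 without WT replicate 3 and 0.102 with the hair follicle score.

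Among the remaining MMPs, Mmp11, stromelysin-3, was at 4.36, 4.68 and 7.09 CPM in WT and at 1.67, 14.0 and 6.76 CPM in KO. Both its lowest and its highest library were KO, and the log2 fold change was 0.09 (SE 0.63). Mmp28, epilysin, a keratinocyte MMP named after its values were seen, kept to 30.7 to 35.9 CPM in WT and at 27.5 to 40.6 CPM in KO. Mmp19, likewise named after the fact, was at 46.0, 36.9 and 17.7 CPM in WT and at 24.6, 29.2 and 24.6 CPM in KO (log2 fold change -0.25, SE 0.32). Mmp16, Mmp17, Mmp23, Mmp25 and Mmp27, also named after their values were seen, were low, with no library above 5.58 CPM, and had log2 fold changes of -0.06, -0.28, 0.07, 0.34 and -0.04. Across the 17 tested MMPs, WT replicate 3 held the lowest value in 7 and the highest in 0, and KO replicate 1 the lowest in 5 and the highest in 1. Over all 49 tested genes KO replicate 1 held the lowest value in 15 and WT replicate 3 in 14.

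Of the TIMPs, Timp2 and Timp3 were abundant, whereas Timp1 and Timp4 were low. Timp2, which inhibits MMPs and takes part in proMMP2 activation, was at 309, 405 and 405 CPM in WT and at 262, 372 and 372 CPM in KO (log2 fold change -0.16, SE 0.17). Timp3, which binds the matrix and also inhibits ADAM17 and aggrecanases, was at 524, 724 and 921 CPM in WT and at 607, 564 and 913 CPM in KO (log2 fold change -0.05, SE 0.24). In both, the groups overlapped.

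Timp1, the inducible inhibitor, was at 20.1, 15.1 and 4.12 CPM in WT and at 12.0, 8.13 and 9.99 CPM in KO (log2 fold change -0.13, SE 0.52). It was ordered as Mmp9 was in WT, with replicate 1 highest and replicate 3 lowest. Timp4, which is known from heart and fat, was low, at 4.11, 4.68 and 3.96 CPM in WT and at 3.34, 3.08 and 2.06 CPM in KO. All 3 KO values lay below all WT values, with means of 4.25 ± 0.38 and 2.83 ± 0.68 CPM (SD, n = 3) and a log2 fold change of -0.53 (SE 0.29, limma unadjusted p = 0.107). Markers of adipocytes had a median log2 fold change of -0.79, with 8 of 8 listed genes below 0, a summed level of 492 to 771 CPM in WT and at 295 to 786 CPM in KO, and none at 0 reads. Their part in the Timp4 values was not tested. The fold changes of all 4 TIMPs were below 0, with a median of -0.15, as were 56.7% of all genes tested.

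Adamts1, an inducible proteoglycanase of versican and aggrecan, was at 212, 122 and 116 CPM in WT and at 162, 174 and 127 CPM in KO (log2 fold change 0.09, SE 0.24). Adamts4, aggrecanase-1, was at 26.6, 8.34 and 15.0 CPM in WT and at 5.61, 15.7 and 8.81 CPM in KO (log2 fold change -0.67, SE 0.47). The fold change was -0.27 without WT replicate 1 and -1.08 without WT replicate 2. Adamts5 and Adamts9, both proteoglycanases and named after their values were seen, were highest in KO replicate 2. Adamts5 was at 51.9 to 54.9 CPM in WT and at 31.7, 70.1 and 32.9 CPM in KO, and Adamts9 was at 12.3, 33.9 and 10.9 CPM in KO against 19.6 to 35.3 CPM in WT. Without KO replicate 2 both were lower in KO at an unadjusted p below 0.05 (limma), with log2 fold changes of -0.73 and -1.03. In that fit 2 of the 49 genes passed, when 4.05% of all genes did, so this is the background share.

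Adamts7, which cuts cartilage oligomeric matrix protein, was at 3.15, 4.07 and 4.29 CPM in WT and at 3.03, 1.96 and 2.94 CPM in KO. The groups did not overlap, but the nearest WT and KO values, 3.15 and 3.03 CPM, were less than the CPM of 1 read apart, and the log2 fold change was -0.47 (SE 0.30). Adamts18, an orphan ADAMTS, was at 0.484, 0 and 6.76 CPM in WT and at 0, 1.40 and 0.881 CPM in KO. Its value in WT replicate 3 was far above the others, opposite to Mmp10 and Mmp1b. Adamts8 ranged from 0.824 to 1.02 CPM in WT and from 0.560 to 3.53 CPM in KO (log2 fold change 0.55, SE 0.53), with a fold change of 0.0806 if KO replicate 3 was left out and of 1.04 if KO replicate 2 was. Of the remaining tested ADAMTSs, named after their values were seen, Adamts12 (12.6, 24.2 and 36.4 CPM in the WT libraries) and Adamts20 (1.94, 3.46 and 7.58 CPM) were also highest in WT replicate 3. Their log2 fold changes were -0.36 and -0.33, and those of Adamts6, Adamts10, Adamts15 and Adamts17 were 0.09, 0.25, 0.23 and 0.05. The procollagen N-propeptidases Adamts2, Adamts3 and Adamts14, which trim fibrillar procollagens, had log2 fold changes of 0.02, -0.01 and 0.33, and summed to 95.1 to 116 CPM in WT and at 94.4 to 128 CPM in KO.

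The sheddases varied little. Adam10, which releases Notch and cadherin ectodomains, was at 115, 160 and 139 CPM in WT and at 124, 115 and 157 CPM in KO (log2 fold change -0.06, SE 0.16). Adam17, which releases TNF and ligands of the EGF receptor, was at 91.0, 120 and 90.5 CPM in WT and at 102, 107 and 107 CPM in KO (log2 fold change 0.08, SE 0.13). Adam9 had a log2 fold change of -0.08 (SE 0.16). For these 3 genes the 95% intervals ran at most from -0.45 to 0.39.

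Adam8, a leukocyte ADAM named after its values were seen, stood apart from them. It was at 51.8, 21.97 and 7.75 CPM in WT and at 28.1, 34.2 and 19.1 CPM in KO (log2 fold change 0.33, SE 0.59). Adam12, Adam15, Adam19 and Adam33, also catalytic and named likewise, had log2 fold changes of 0.30, 0.05, 0.13 and -0.29, and Adam22 and Adam23, which lack a catalytic site and act in adhesion, of 0.33 and 0.24. Of the ADAMs known from the testis, Adam1a was at 3.31, 3.05 and 1.65 CPM in WT and at 3.13, 4.76 and 4.33 CPM in KO (log2 fold change 0.56, SE 0.34, and 0.30 without WT replicate 3). Adam4 was at most 1.96 CPM, and its deposited position overlaps Cox16 and Gm20498 on the same strand, although GENCODE M21 lists no shared exon bases. Adam11, Adam21, Adamts19, Mmp8 and Mmp24 had means below 1 CPM and were not tested.

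Levels of different genes were compared as CPM per kb of exon, with exon lengths from GENCODE M21. Timp2 had a mean of 90.9 per kb (67.2 to 104 over the libraries), Timp3 of 87.1 (64.4 to 113) and Mmp2 of 70.4 (61.1 to 81.1), and these ranges overlapped. Adamts1 (28.7 per kb), Adam10 (27.5), Mmp14 (24.3), Mmp3 (22.2) and Adam9 (22.1) followed, with overlapping ranges. The highest library of Adamts1, at 39.9 per kb, was below the lowest of Mmp2. Further down, Mmp9 had 9.09, Mmp13 had 4.38 and Mmp10 had 1.41 per kb.

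Among the families, spread differed with level. Over all genes tested the median spread was 0.68 and 6.03% of genes exceeded 2. Over the 49 tested genes of the families the median was 1.24, and 10 (20.4%) exceeded 2. The families' 7 most abundant genes, averaging 100 CPM or more, had a spread of 0.41 to 0.87 and log2 fold changes of -0.16 to 0.15.

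**Figure D2:**
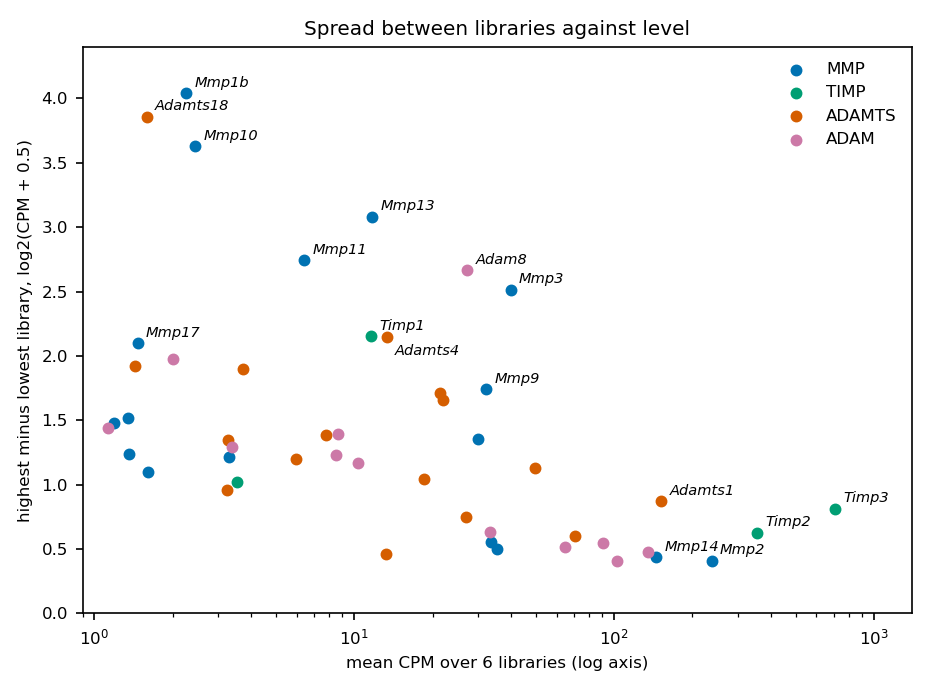
Spread between the 6 libraries (highest minus lowest, log2(CPM + 0.5) scale, vertical axis) against mean level in CPM (horizontal log axis) for the 49 tested genes, coloured by family. Mmp1b, Adamts18, Mmp10 and Mmp13 lie above 3, while the 7 genes at 100 CPM or more lie at or below 0.87.

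The comparison of KO with WT was then made over all genes tested. Of the 49 tested genes of the families, 0 passed an adjusted p of 0.05 in limma (lowest adjusted p 0.998), where the whole table had 2 (0.014%), with 0.00699% lower and 0.00699% higher in KO. At an unadjusted p below 0.05, 0 were lower and 0 higher in KO, against 1.82% and 1.06% of all genes, and limma voom on recovered reads also gave 0. The fold change was below 0 in 23 and above 0 in 26, with a median of 0.02. Groups did not overlap in 3 (6.12%), namely Timp4, Adamts7 and Mmp15, against 7.84% of all genes (4.89% with KO below WT and 2.95% with KO above WT). The share was thus near the background. The MMPs had a median log2 fold change of 0.02 over 17 genes, the ADAMTSs of 0.01 over 16 and the ADAMs of 0.19 over 12, and 0 of each passed. The 95% interval reached a median of 0.86 on either side of the fold change, and of 0.38 for the 7 genes averaging 100 CPM or more. Differences within a gene's interval were not detectable at this depth and number of mice.

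**Figure D3:**
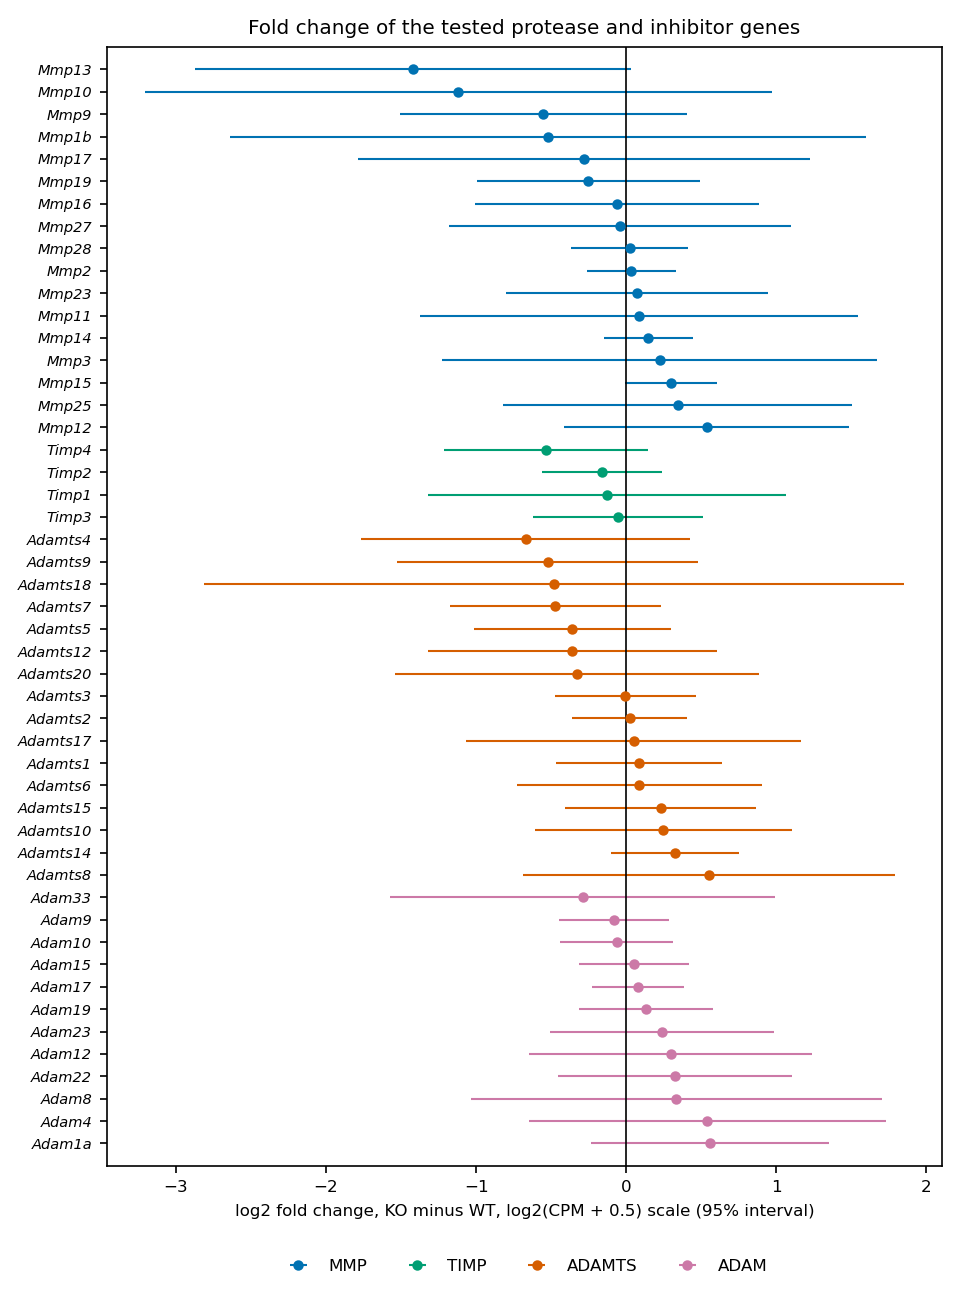
Log2 fold change, KO minus WT, on the log2(CPM + 0.5) scale with its 95% limma interval for the 49 tested genes, sorted within families. Every interval includes 0, and those of Mmp15 and Mmp13 end closest to it.

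Single libraries moved the counts. In the fit without WT replicate 3, 4.96% of all genes passed an unadjusted p below 0.05 in either direction. Of the 49 tested genes of the families, 6 were lower in KO at that threshold and 0 were higher. These were Mmp9 (log2 fold change -1.10, SE 0.16), Mmp13 (-2.16, SE 0.39), Mmp10 (-2.18, SE 0.55), Mmp19 (-0.65, SE 0.18), Mmp1b (-1.62, SE 0.52) and Timp1 (-0.78, SE 0.26). The library left out was the lowest for each of these genes but Mmp13. Other libraries moved them the other way: without WT replicate 1 Mmp10 was at -0.36, Mmp9 at -0.23, Mmp1b at 0.40, Timp1 at 0.30 and Mmp19 at 0.02, and without WT replicate 2 Mmp13 was at -0.87. Without WT replicate 3, Mmp9 had the smallest adjusted p of the families, 0.0664 by limma. Over all alternatives its adjusted p ranged from 0.0664 to 0.99999. The median of the chromosome 9 group was -1.10 without WT replicate 3, 0.26 without WT replicate 1 and -0.28 with all libraries. Thus 0 of the 6 was past the threshold with all 6 libraries.

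The libraries also differed in neutrophil markers, with WT replicate 1 the highest and WT replicate 3 the lowest. Neutrophil markers (5 of 10 listed were in the table, with none at 0 reads, and Ly6g, Mpo, Camp, Ltf and Ngp were not analysed here) summed to 500, 151 and 15.0 CPM in WT and to 167, 59.7 and 67.6 CPM in KO. When the hair follicle score entered the fit, Mmp13 had a log2 fold change of -0.87 (SE 0.42) and Mmp9 of -0.13 (SE 0.20), Mmp3 was higher in KO (0.84, SE 0.32, limma unadjusted p = 0.0288), and the chromosome 9 median was 0.16. Mmp3 was the 1 gene of 49 past the unadjusted threshold in that fit, where 5.99% of all genes passed. When the neutrophil score entered instead, Mmp13 (-1.31, SE 0.43) and Mmp9 (-0.46, SE 0.19) were lower in KO at an unadjusted p below 0.05, as 2 of 49 genes where 4.77% of all genes passed, and the adjusted p of both was 0.974 by limma. For Mmp13 the adjusted p ranged from 0.117 to 0.99999 over all alternatives.

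**Figure D4:**
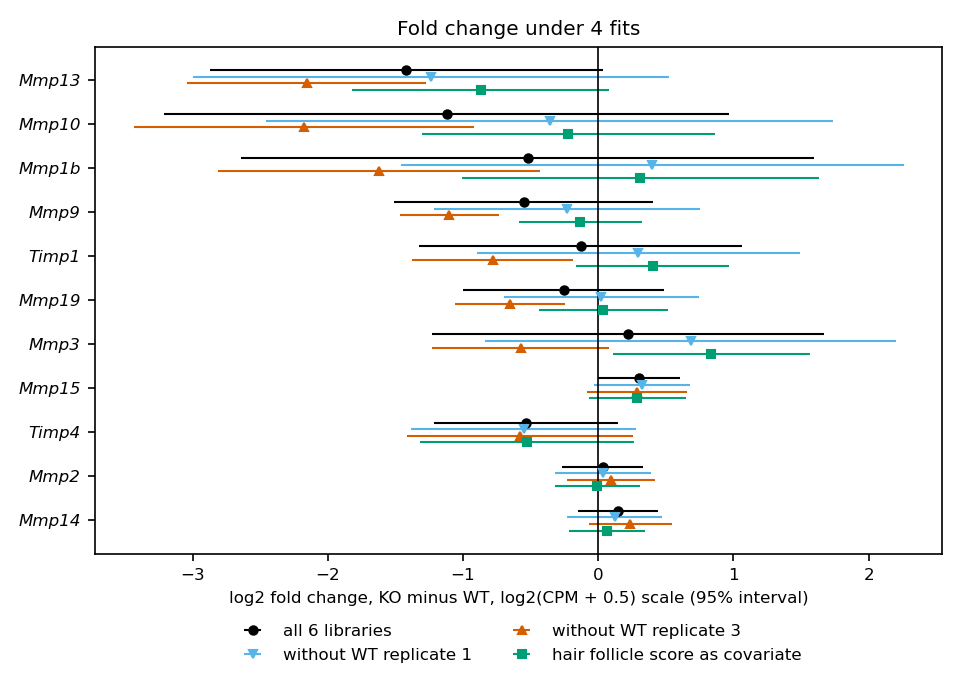
Log2 fold change, KO minus WT, on the log2(CPM + 0.5) scale with its 95% limma interval for 11 genes under 4 fits: all libraries, without WT replicate 1, without WT replicate 3, and one that includes the hair follicle score. For Mmp13, Mmp10, Mmp1b, Mmp9, Timp1 and Mmp19 the interval lies below 0 in 1 of these 4 fits, that without WT replicate 3, whereas Mmp2, Mmp14, Mmp15 and Timp4 differ little between fits.

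Genes that work with these proteases were examined next, from lists of activators, other inhibitors, matrix substrates and shed surface proteins. Of 85 listed genes 72 were tested, and 0 passed an adjusted p of 0.05 in limma. At an unadjusted p below 0.05, 2 were lower (2.78%) and 3 were higher in KO, with 6.94% in either direction against 2.88% of all genes. Areg, Ereg, Col1a1 and Tspan15 are among the genes the study listed from these same libraries, so their directions are not independent evidence. The lists were also chosen with earlier results of these data known, so the shares found in them are not independent evidence either.

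Of the ligands shed by ADAMs, Areg (amphiregulin) was at 28.6, 6.51 and 4.62 CPM in WT and at 3.03, 2.24 and 1.18 CPM in KO (log2 fold change -2.002, SE 0.64, limma unadjusted p = 0.0144). All KO values lay below all WT values, and WT replicate 1 was far above the rest. Epgn (-1.83, SE 0.95), Hbegf (-0.99, SE 0.65) and Btc (-0.92, SE 0.48), 3 more ligands of the EGF receptor, had negative log2 fold changes and overlapping groups. Single libraries moved these values: without WT replicate 1 they were -0.85 for Epgn, -0.31 for Hbegf and -1.24 for Areg, without WT replicate 3 they were -2.92 for Epgn and -1.67 for Hbegf, and Btc ranged from -0.52 without KO replicate 1 to -1.38 without KO replicate 2. Areg lost the unadjusted threshold in 2 of 17 alternatives. Ereg was at 74.6, 101 and 96.6 CPM in WT and at 131, 104 and 130 CPM in KO (log2 fold change 0.43, SE 0.15, limma unadjusted p = 0.0235). Ereg lost the unadjusted threshold in 4 of 17 alternatives. Of 23 shed proteins, 15 had a fold change below 0 (65.2%), near the 56.7% of all genes.

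Of 17 matrix substrates, 14 had a fold change above 0 and 3 below (17.6%, against 56.7% of all genes), with a median of 0.18. Chondrocyte markers, of which Acan, Col2a1 and Comp are also in the substrate list, had fold changes above 0 in 11 of 11 tested genes of 12 listed, with a median of 0.49. Their summed level was 201 to 412 CPM in WT and 288 to 497 CPM in KO, none was at 0 reads, and their part in the substrate values was not tested. Col1a1, a chain of type I collagen, was at 1035, 1089 and 1411 CPM in WT and at 1240, 1861 and 1940 CPM in KO (log2 fold change 0.50, SE 0.20, limma unadjusted p = 0.0391). It passed the unadjusted threshold in 11 of 17 alternatives. KO replicates 2 and 3 exceeded all WT libraries. Tspan15, a tetraspanin that partners ADAM10, was at 6.29, 5.90 and 6.92 CPM in WT and at 8.19, 8.97 and 10.9 CPM in KO (log2 fold change 0.51, SE 0.22, limma unadjusted p = 0.0459). It passed in 6 of 17 alternatives. Its groups did not overlap, whereas Adam10 itself had a log2 fold change of -0.06.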

How the data were processed

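RNA of bitten ear skin was sequenced from 3 WT and 3 KO mice. The authors trimmed the reads, aligned them to mm10 with STAR 2.7.3a (submitters' processing notes), used the expectation-maximization quantification of Partek Flow on transcripts, summed them per gene, divided by the library total and added 0.0001; the deposited values are thus CPM. This method can divide a read among genes, and no source used here states whether strand was used. Depth came from the CPM step of a single read: 91.9% to 92.6% of low values (under 20 reads) were within 0.1 of whole, so recovered reads are estimates and no count model was the main test. Floors of 3 reads cover counting error only, whereas the limma intervals rest on the spread between the libraries of a group.

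KO was compared with WT by limma 3.58.1 (R 4.3.3; eBayes with trend, two-sided, no covariate) on log2(CPM + 0.5), over the 14306 genes averaging 1 CPM or more, with Benjamini-Hochberg adjustment over all of them. The pseudocount understates the change of low genes. An exact permutation test of 3 against 3 cannot give a p below 0.1. The step was also run on simulated counts with the same dispersion (variance beyond counting error) for every gene. These lack the differences between libraries in hair follicle and neutrophil markers, so they do not show how the fit behaves under them. A list's score averages log2(CPM + 0.5) over its tested genes. Alternatives were other pseudocounts, filters, scalings and fits, 2 covariates and each library left out.

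The families and lists were chosen with earlier results of these data known. The naming rule took Adipoq, the TIMPs, Mmp13, genes of the families at p below 0.05, with groups that do not overlap, with the 8 largest fold changes, the 8 highest levels or the 5 widest spreads, and related genes at p below 0.05 or with the 5 largest fold changes. Others are stated to have been named after their values were seen. Values of 1 related gene that the rule named are not reported here.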

Additional observations from a re-analysis of the deposited data

How the results depend on the processing

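The count of protease and inhibitor genes at an adjusted p below 0.05 stayed at 0 under all 17 alternatives, and so did that of the related genes. At an unadjusted p below 0.05, the lower genes of the families numbered 1 without the trend (Timp4) and 2 with the neutrophil score, and 0 to 6 with single libraries left out. The higher ones numbered 1 with the filter at 5 CPM, after median-of-ratios rescaling, after quantile normalization and with the hair follicle score, and 0 to 1 with single libraries left out. Related genes higher in KO numbered 5 after quantile normalization, 1 without the trend and 1 with the hair follicle score; lower ones numbered 6 with the hair follicle score and 7 with the neutrophil score. With single libraries left out these ranges were 0 to 7 higher and 2 to 8 lower. The share of all genes passing in either direction also moved, from 2.88% in the main fit. It was 2.96% after median-of-ratios rescaling, 2.97% after quantile normalization, 3.02% with the filter at 5 CPM and 3.57% without the trend. With the neutrophil score it was 4.77%, with the hair follicle score 5.99%, and with single libraries left out 2.17% to 4.96%. Adipoq was -7.88 (adjusted p = 0.488) with limma voom, and -6.54 to -5.94 with single libraries left out (adjusted p = 0.0681 without WT replicate 2).

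Direction reversed for these genes, with voom Mmp11 (-0.31), Mmp1b (0.36) and Timp1 (0.0443), and with the hair follicle score Mmp11 (-0.18), Mmp1b (0.31), Mmp2 (-0.00669) and Timp1 (0.40). With single libraries left out, reversing genes spanned -0.20 to 0.0474 (Adam10), -0.20 to 0.0669 (Adam9), -0.0722 to 0.36 (Adamts1), -1.29 to 0.64 (Adamts18), -0.54 to 0.83 (Mmp11), -1.62 to 0.40 (Mmp1b), -0.0628 to 0.14 (Mmp2), -0.78 to 0.30 (Timp1), -0.29 to 0.00775 (Timp2) and -0.27 to 0.14 (Timp3). The cause was not tested. The other 490 of 518 values (a gene under an alternative) stayed on the same side of 0 and of the adjusted threshold. The unadjusted threshold of 0.05 was crossed in 48 of the 518, by 14 genes, most often Tspan15 (11 alternatives), Btc (6), Col1a1 (6), Mmp13 (4) and Ereg (4).

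WT and KO share replicate numbers. The deviations of libraries of the same number from their group means had correlations of 0.38, -0.31 and -0.22. Pairs of different numbers ranged from -0.38 to 0.45. With 3 libraries per group, these values cannot decide whether libraries of the same number were handled together. With the replicate block, 1 gene of the families was lower (Mmp13, unadjusted p = 0.0146) and 0 higher, where 4.13% of all genes passed, and 7 related genes were lower and 5 higher. At 3403711 to 6591523 reads, genes near 1 CPM rest on few reads.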

Other observations

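By their deposited positions, 3 of the 4 TIMP genes overlapped a synapsin gene on the opposite strand. These were Timp1 with Syn1 (mean 1.78 CPM), Timp3 with Syn3 (2.62 CPM) and Timp4 with Syn2 (1.26 CPM). The mean levels of the inhibitors were 11.6 CPM for Timp1, 709 CPM for Timp3 and 3.54 CPM for Timp4. Synapsins are proteins of synaptic vesicles, and without strand, reads from shared exon bases cannot be told apart. In GENCODE M21 the exons of Timp3 and Syn3 shared 1733 bases (21.3% of those of Timp3), those of Timp4 and Syn2 shared 90 (1.53%) and those of Timp1 and Syn1 shared 0. Timp2 overlapped Cep295nl (2.21 CPM) on the same strand, against its own mean of 354 CPM, with 0 shared exon bases. Of the MMPs, Mmp19 (mean 29.8 CPM) shared 789 exon bases (22.3%) with Tmem198b (8.03 CPM). Mmp28 (33.5 CPM) shared 466 (12.0%) with 1700020L24Rik (2.75 CPM). Mmp24, which was not tested (0.429 CPM), shared 637 (13.6%) with the more abundant BC029722 (18.4 CPM). Each of these partners is on the opposite strand.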
